A study of Homo sapiens with 6 samples.

Results

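The genes described here encode the subunits of the respiratory chain that are made from nuclear genes, and they were taken from the deposited table of expression values by their symbols. Symbols starting with NDUFA, NDUFB, NDUFC, NDUFS or NDUFV and a digit, with UQCR, with COX4 to COX8 or with ATP5, together with SDHA, SDHB, SDHC and SDHD, gave 88 members of 21863 symbols. Of these, 37 were assigned to complex I, 4 to complex II, 9 to complex III, 19 to complex IV and 19 to complex V, with NDUFA4 counted in complex IV. The symbol rule also took 7 symbols that are not subunits, namely UQCRHL, COX4NB, COX7A2L, NDUFA4L2, ATP5EP2, ATP5S and ATP5SL, which left 81 subunits.

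The libraries came from Hep G2, an established human liver cancer cell line, and the study asked which mRNAs are bound and repressed by miR-195 and miR-497, a pair of microRNAs (miRNAs) from one gene cluster. Cells were either non-transfected, with a labelled time of 0 h, or transfected with 5 nM of a synthetic RNA mimicking miR-195 or miR-497. Transfected cells were harvested after 24 h. From each of these 3 conditions, total RNA and the RNA co-immunoprecipitated with an antibody to Argonaute 2 (Ago2-IP) were sequenced, which gave 6 libraries. Ago2 is the protein that holds the miRNA in the RNA-induced silencing complex, so the Ago2-IP RNA is the RNA recovered with it. Cells transfected with a control RNA were not part of these libraries, so the mimic, the transfection reagent and the time in culture cannot be told apart in any comparison with non-transfected cells.

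There was 1 library for each condition and fraction, so differences between conditions have no replicate check and no test between conditions was made. The values are RPKM, read numbers scaled to the length of the transcript and to the mapped reads of the library. The low values fell on steps that gave the whole numbers of reads behind 12840 genes, between 16827471 and 21028139 reads in the total RNA libraries and between 1619160 and 3319995 in the Ago2-IP libraries. The intervals given below are 95% intervals from these read numbers and cover counting error only. As the RNA was bulk RNA, fewer cells and less RNA per cell cannot be told apart. All 15 hepatocyte marker genes checked were detected in non-transfected total RNA, and their median lay at percentile 99.7 of all symbols. They ran from TTR at 1.52 RPKM, which lay only at percentile 52.9, to AFP at 4884 RPKM.

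The respiratory chain sits in the inner mitochondrial membrane. Complexes I and II pass electrons from NADH and succinate to ubiquinone, complex III passes them on to cytochrome c, complex IV passes them to oxygen, and complex V, the ATP synthase, makes ATP from the resulting proton gradient. Apart from complex II, each complex joins subunits encoded in the nucleus with subunits encoded in mitochondrial DNA, and the liver uses this chain for most of its energy supply.

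The mature sequences of both miRNAs (RefSeq, on GRCh38.p14, chr17:7017667-7017687 and chr17:7017979-7017999, minus strand) are shown because the sites searched for in the members follow from their seed, bases 2 to 8, which is in capitals.
hsa-miR-195-5p: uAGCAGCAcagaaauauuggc
hsa-miR-497-5p: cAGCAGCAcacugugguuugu
The seeds are identical, so both miRNAs pair with the same 7 bases of an mRNA, TGCTGCT. GENCODE 44 transcripts on GRCh37, which has the coordinates of the hg19 build used for the deposited values, held this site in at least 1 annotated 3′UTR of 9 of the 87 members with such a UTR (10.3%), against 4606 of 18206 symbols (25.3%). They included ATP5A1, ATP5E, ATP5G3, ATP5S, NDUFA10, NDUFA11, NDUFS7 and UQCRB. In NDUFA10, NDUFA11 and NDUFS7 it was found only in transcripts that are not the canonical one. The 30-base windows below show 4 of the canonical sites, on the strand of the mRNA, with the 7 bases in capitals.
ATP5A1 (chr18:43662804-43662833, minus strand): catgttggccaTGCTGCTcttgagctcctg
ATP5E (chr20:57601880-57601909, minus strand): aatttcggtgaTGCTGCTgctctgagagac
ATP5G3 (chr2:176042193-176042222, minus strand): caacagtatttTGCTGCTaatactttatgt
ATP5S (chr14:50793300-50793329, plus strand): gaatcaacagtTGCTGCTtaatttgtctat
These sites started between 805 bases (ATP5G3) and 2002 bases (ATP5E) after the stop codon. The read numbers imply gene models of 416 bases for ATP5E and 1942 for ATP5A1, against annotated transcripts of 3610 and 5761 bases. Models of that length would not reach the sites shown, as the coding part of ATP5A1 alone has 1662 bases. For ATP5G3 and ATP5S the implied models had 2635 and 1878 bases, against 2587 and 2944. Whether the cells used 3′UTRs long enough to hold the sites was not tested.

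The members spanned a wide range of levels. In non-transfected total RNA, 79 members with a mean of at least 1 RPKM over the 6 libraries lay between 2.48 and 537 RPKM. The median was 43.2 RPKM for complex I, 27.5 for complex II, 35.1 for complex III, 118 for complex IV and 73.5 for complex V. With 1 library, the order of the complexes has no spread between cultures to be set against. The 79 members had a Spearman correlation of 0.84 between their levels in Ago2-IP and total RNA of non-transfected cells, across genes that share these libraries.

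**Figure D1:**
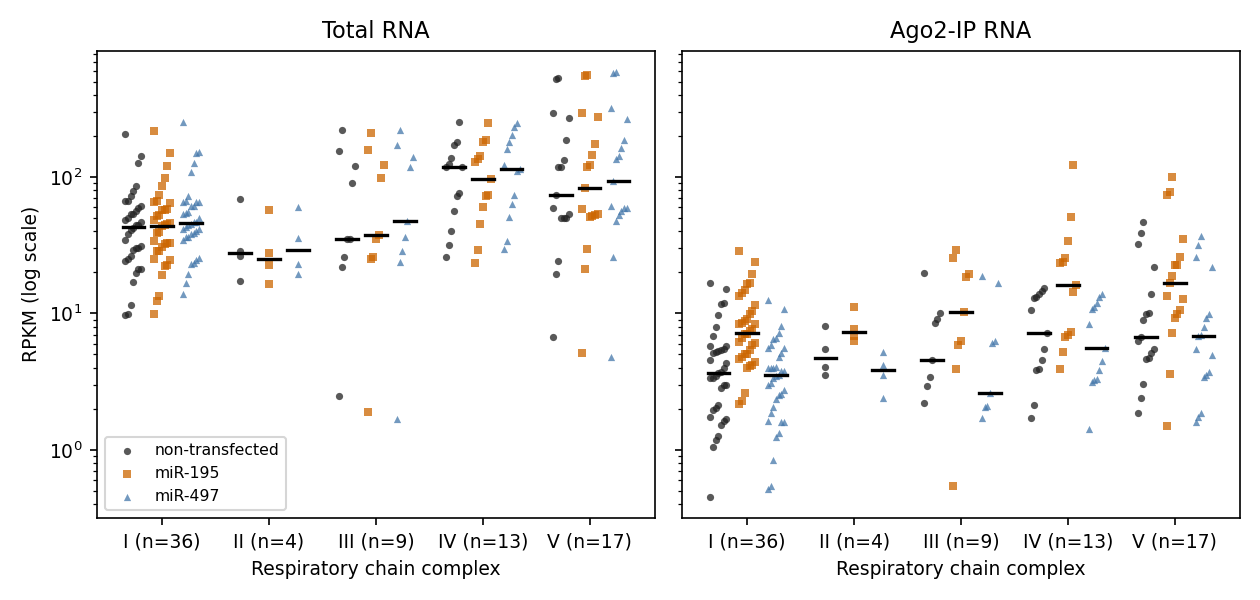
RPKM (log scale) of the members with a mean of at least 1 RPKM, by complex, in total RNA (left) and Ago2-IP RNA (right) of non-transfected, miR-195 and miR-497 cells; each point is 1 gene in 1 library, the bar is the median of the complex, and values of 0 (UQCRHL in 2 Ago2-IP libraries) are not drawn. In Ago2-IP the median of every complex is highest with miR-195, and in total RNA complex IV has the highest medians.

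Complex V held the most abundant members. ATP5E, which encodes the epsilon subunit of the F1 part, was listed at 537, 556 and 584 RPKM in total RNA of non-transfected, miR-195 and miR-497 cells. ATP5B, the catalytic beta subunit, was close to it at 521, 559 and 590 RPKM, and ATP5A1, the alpha subunit, was listed at 296, 296 and 320 RPKM. Within this complex the F1 subunits thus ranged from these levels down to ATP5D, the delta subunit of the central stalk, at 24.2 RPKM in non-transfected cells. ATP5G1, ATP5G2 and ATP5G3 encode the same mature c subunit of the membrane rotor. They made 30.3%, 20.5% and 49.2% of their summed RPKM in non-transfected total RNA, and 32.5%, 20.6% and 46.9% with miR-497. ATP5G3 thus had the largest share of the summed RPKM in both libraries.

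Of the members assigned to complex IV, COX7B was highest at 255 RPKM. COX4NB, now named EMC8 and not a subunit, was the lowest of those above the minimum at 26.0 RPKM. The lowest subunit above the minimum was NDUFA4 at 32.0 RPKM. For the subunits that have tissue-specific forms, these cells listed the widely expressed form. COX4I2, COX6A2 and COX7B2 were listed at 0 in all 6 libraries, while COX4I1 was at 171, COX6A1 at 40.4 and COX7B at 255 RPKM in non-transfected total RNA. COX7A1, COX6B2 and COX8C, forms of muscle or testis, stayed at 0.39 RPKM or below in every library. COX7A2L, a factor of supercomplex assembly related to COX7A2, was listed at 118 RPKM and COX7A2 itself at 75.9 RPKM. NDUFA4L2, the paralog of NDUFA4, was at 0.11 RPKM beside 32.0 RPKM for NDUFA4.

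Members assigned to complex III ranged from UQCRC2, a core subunit, at 222 RPKM to UQCRHL, which is not a subunit, at 2.48 RPKM. The lowest subunit was UQCRQ at 22.1 RPKM. The second core subunit UQCRC1 was at 90.6 RPKM and the Rieske iron-sulfur subunit UQCRFS1 at 35.1 RPKM. UQCRHL is a copy of UQCRH, and ATP5EP2 (1.43 RPKM) is a copy of ATP5E. How 36-base reads that fit both copies were counted is not given in the sources used here, so the values of UQCRHL and ATP5EP2 are uncertain. In complex I, the accessory subunit NDUFS5 was highest at 208 RPKM and the accessory subunit NDUFV3 lowest at 9.76 RPKM. The core subunits NDUFS1, with iron-sulfur clusters, and NDUFV1, which binds the flavin, lay in between at 79.5 and 25.04 RPKM.

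The 4 genes of complex II, the enzyme shared with the citric acid cycle, did not have equal levels. SDHB, the iron-sulfur subunit, was listed at 68.7, 57.0 and 60.3 RPKM in total RNA of non-transfected, miR-195 and miR-497 cells. SDHA, the flavoprotein, was listed at 28.8, 27.6 and 35.9 RPKM. The membrane anchors SDHD and SDHC were at 26.3 and 17.4 RPKM in non-transfected cells. SDHB was thus the highest of the 4 in each total RNA library.

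For the comparisons, each log2 ratio was taken relative to the median of all genes tested, and a gene was called higher or lower from a 1.5-fold difference (0.58 on the log2 scale). A gene was tested where its mean was at least 1 RPKM and it was above 0 in the libraries compared. This left 79 members in total RNA and 78 where Ago2-IP libraries were used, since UQCRHL was listed at 0 in 2 of those. The 9 members below the minimum were COX4I2, COX6A2, COX6B2, COX7A1, COX7B2, COX8C, NDUFA4L2, ATP5L2 and ATP5EP2. The comparisons of miR-195 and of miR-497 share the non-transfected library of their fraction, so their values are given side by side and were not compared as independent results.

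With miR-195, total RNA of the respiratory chain genes stayed close to that of non-transfected cells. No member of 79 was called higher and none lower, against 6.4% and 6.31% of the 10821 genes tested. Those genes reach down to a mean of 1 RPKM, while the members had a median of 50.3 RPKM in non-transfected total RNA. With a pseudocount of 1 RPKM the shares of all genes were 3.65% and 4.61%. Whether the lack of calls goes with level was not tested. The relative log2 changes of the members lay between -0.40 and 0.38 with a median of 0.04. The medians by complex were 0.09 for complex I, -0.14 for complex II, 0.04 for complex III, -0.01 for complex IV and 0.04 for complex V. The lowest values were those of ATP5S, also known as factor B, at -0.40 (-0.63 to -0.16), of UQCRHL at -0.38 and of COX5A at -0.29 (-0.37 to -0.20). NDUFB2, an accessory subunit of complex I, had the highest value at 0.38, followed by NDUFV3 at 0.34 and ATP5D at 0.30.

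With miR-497, the total RNA of 7 members was called higher and that of 1 lower, 8.86% and 1.27% of 79, against 10.1% and 3.99% of the 10826 genes tested. The share of higher members was thus near that of all genes. Of the 7 members, 6 belonged to complex I and 1 to complex V, and the member called lower was UQCRHL.

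ATP5D, the delta subunit of ATP synthase, was listed at 24.2, 29.7 and 47.9 RPKM in total RNA of non-transfected, miR-195 and miR-497 cells. Its level with miR-497 was 1.98-fold that of non-transfected cells (1.77 to 2.22), a relative log2 change of 0.94. NDUFS8, a core subunit of complex I with iron-sulfur clusters, was listed at 24.2, 28.5 and 41.8 RPKM, and its relative log2 change with miR-497 was 0.74 (0.59 to 0.90). NDUFB7, an accessory subunit of the membrane arm, was at 21.3, 25.2 and 36.7 RPKM, with a relative log2 change of 0.74 (0.54 to 0.94). In all 3 genes the miR-195 library lay between the others. The other 4 were NDUFA11 at 0.72, the core subunits NDUFS7 at 0.71 and NDUFV1 at 0.64, and NDUFS6 at 0.63. Among the core subunits of complex I, 3 of 7 were called higher, and among its accessory subunits 3 of 29 (10.3%), beside 10.1% of all genes. The 3 core subunits called have at least 60% GC, and 44.3% of all genes of that GC content were called higher. At the other end stood UQCRHL at -0.61 (-1.33 to 0.12), ATP5S at -0.55 (-0.78 to -0.31) and NDUFS4 at -0.33 (-0.48 to -0.19).

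The GC content of the transcript moved with the change in total RNA of miR-497 cells. The Spearman correlation between GC content and relative change was 0.80 across the 79 members and 0.75 across 10574 genes, which share both libraries. The 39 members above the members' median GC content of 47.2% had a median relative log2 change of 0.34, and the 40 others had one of -0.04. Of the 7 members with at least 60% GC, 6 were called higher, and so were 653 of 1475 genes of that GC content (44.3%). When genes were centred within 20 bins of GC content, no member was called higher, against 2.78% of all genes. ATP5D then stood at 0.29, NDUFS8 at 0.21 and NDUFB7 at 0.09. Without any centring 9 members were called higher and 0 lower, against 12.04% and 3.11% of all genes. Centring within bins of transcript length left 2 higher, against 9.07%. With miR-195 the correlation with GC content was 0.46 across the members.

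**Figure D2:**
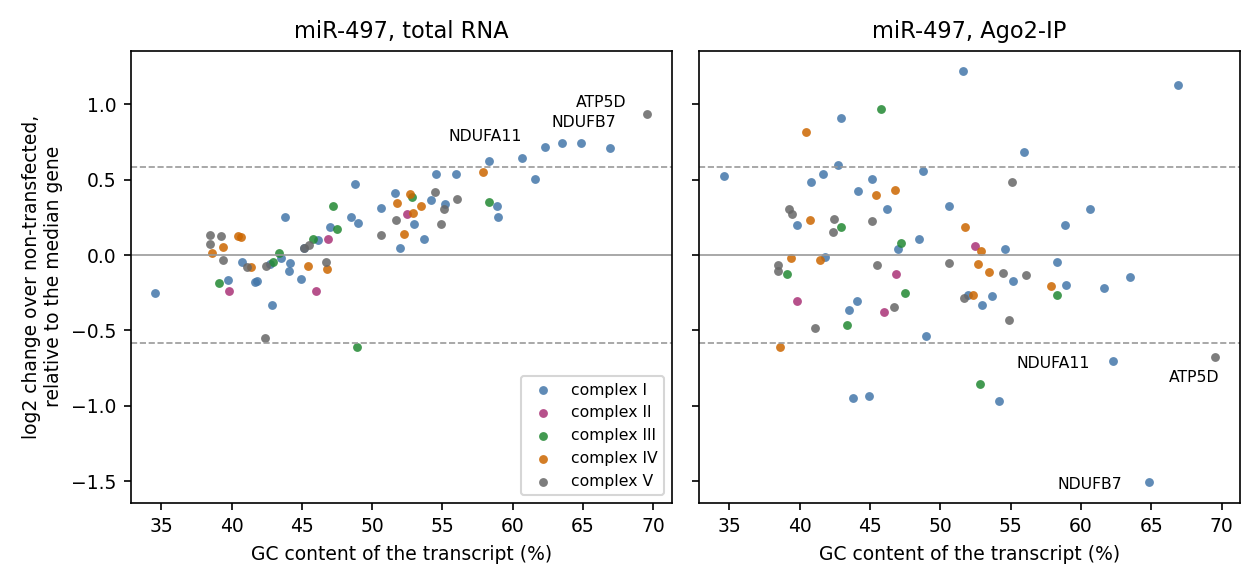
Relative log2 change of each member with miR-497 over non-transfected cells in total RNA (left) and Ago2-IP (right) against the GC content of its canonical transcript in percent, coloured by complex; dashed lines mark 1.5-fold. In total RNA the changes climb with GC content up to ATP5D at 0.94, while in Ago2-IP the Spearman correlation is -0.23 and ATP5D, NDUFA11 and NDUFB7 lie below the lower line.

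Ago2-IP RNA held less of the respiratory chain genes than total RNA, relative to other genes. In non-transfected cells, 71 of 78 members were called lower in Ago2-IP over total RNA and none higher, against 29.6% lower and 29.4% higher of the 10825 genes tested. The median relative log2 ratio was -1.64 for the members, -1.70 for complex I, -1.01 for complex II, -1.58 for complex III, -1.93 for complex IV and -1.55 for complex V. By read numbers, 63 of the 71 had an interval, and that of 60 lay wholly beyond 1.5-fold. NDUFA8, an accessory subunit of complex I, had the lowest ratio, with 34.7 RPKM in total RNA and 1.27 in Ago2-IP, a relative log2 ratio of -2.92 (-3.59 to -2.24). COX6C followed at -2.87 and NDUFB6 at -2.80. At the top, NDUFB2 stood at 0.26 (49.9 and 16.6 RPKM), SDHC at 0.18 (17.4 and 5.45 RPKM) and ATP5S at 0.00 (6.73 and 1.86 RPKM). Low ratios were not particular to these genes. Called lower were also 64 of 77 mitochondrial ribosomal protein genes, 65 of 85 cytosolic ones, 12 of 14 citric acid cycle genes and 13 of 15 hepatocyte markers. Of 29 assembly factors of the respiratory chain, 13 were called lower and 4 higher. The 15 regulators of mitochondrial biogenesis had 5 calls in each direction and a median of 0.40.

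Both fractions were sequenced for each condition, so the ratio could also be taken as 3 pairs. Among 78 members, 71 were called lower in the non-transfected pair, against 29.5% of 10777 genes. In the miR-195 pair 64 were called lower, against 26.2%, and in the miR-497 pair 72, against 33.3%. In all 3 pairs 62 members were called lower, against 17.8%. In limma, fitted to the 3 centred ratios of every gene, 69 of 78 members were lower and none higher at a Benjamini-Hochberg adjusted p under 0.05, against 27.9% lower and 25.8% higher of all genes. At an unadjusted p under 0.05 in limma, 72 were lower and 0 higher, and the share of all genes at that limit was not counted. The median of the members' mean ratios was -1.54. The pairs differ in treatment, so they are not replicates of 1 condition. Leaving out the non-transfected pair left 58 members lower, against 13.2% of all genes. Leaving out the miR-195 pair left 72, against 31.5%, and the third choice lay between these counts.

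Length and level moved with this ratio. Its Spearman correlation with transcript length was 0.40 across the members and 0.40 across all genes, and the median annotated transcript was 875.5 bases for the 78 members and 3227 bases for all genes. Annotated lengths and those implied by the read numbers were close for ATP5B (1759 and 1840 bases). They were far apart for COX7B (2444 and 455), NDUFA9 (8356 and 1606) and NDUFB11 (586 and 1122). Bins of annotated length or GC content can therefore misplace a member. Centred within bins of length, 62 of 78 members were called lower, against 24.0% of all genes. Centred within bins of mean RPKM, 51 were called lower, against 26.1%, and the members' median was -0.80. Total RNA is the divisor of the ratio and also enters this mean, so part of a relation with level is built in. Total RNA and Ago2-IP libraries were made from different amounts of RNA and with or without poly-A selection, which the labels do not assign to libraries, so fraction and preparation cannot be told apart.

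**Figure D3:**
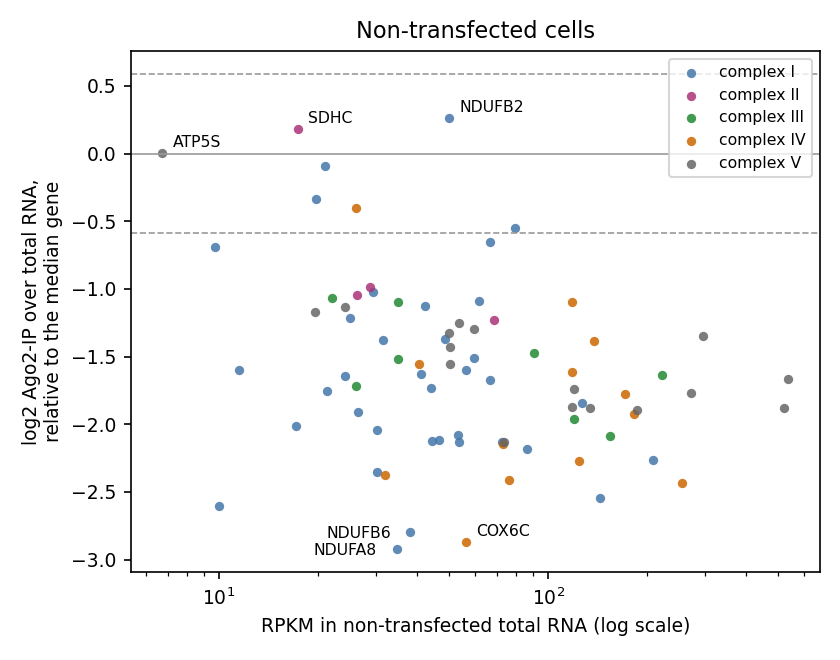
Log2 ratio of Ago2-IP to total RNA in non-transfected cells, relative to the median gene, against RPKM in total RNA (log scale) for 78 members, coloured by complex; dashed lines mark 1.5-fold. Most members lie below the lower line, and NDUFB2, SDHC and ATP5S are the 3 at or above the median gene. The values on the x axis are also the divisor of the ratio.

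In Ago2-IP with miR-195, many respiratory chain genes were higher than in Ago2-IP of non-transfected cells. That non-transfected library is also the one set against total RNA above. Low values in it lower that ratio and raise this change, so these results are not independent. Of 78 members, 37 were called higher (47.4%) and 1 lower, against 18.6% higher and 15.2% lower of the 10881 genes tested. The members' median relative log2 change was 0.53, and 67 of the 78 lay above the median gene. By complex, 19 of 36 members of complex I were called higher, 0 of 4 of complex II, 3 of 8 of complex III, 7 of 13 of complex IV and 8 of 17 of complex V. Read numbers gave an interval for 32 of the 37, of which 31 lay wholly above the median gene and 8 wholly above 1.5-fold.

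The highest values were those of a pair of complex IV subunits, of which COX5B stood well above all other members, while COX5A was level with NDUFS7 and NDUFA3 of complex I. COX5B, a zinc-binding subunit, was listed at 14.6, 122 and 13.9 RPKM in Ago2-IP of non-transfected, miR-195 and miR-497 cells, from 124, 842 and 75 reads. In total RNA of the same conditions it was listed at 138, 129 and 181 RPKM. Only the Ago2-IP library with miR-195 was thus high for COX5B among the 3 Ago2-IP libraries. Its level there was 8.39-fold that of non-transfected cells (6.95 to 10.1), a relative log2 change of 2.57 (2.29 to 2.84), rank 63 of 10881 genes. COX5A, a subunit on the matrix side of complex IV, was listed at 10.7, 50.9 and 11.8 RPKM in Ago2-IP, from 138, 533 and 97 reads. Its total RNA was at 118, 96.2 and 116 RPKM. The change of COX5A in Ago2-IP was 4.77-fold (3.96 to 5.76), a relative log2 change of 1.75 (1.48 to 2.02), rank 198. Against the Ago2-IP library of miR-497 cells, the same miR-195 library was 8.78-fold as high for COX5B (6.94 to 11.1) and 4.30-fold for COX5A (3.46 to 5.34). Relative to the median gene these were 2.38 and 1.35 on the log2 scale. Both genes were named for their values in this miR-195 library, so this ratio is not an independent check. All other members of complex IV lay between -0.15 and 1.16 with miR-195, the highest being COX8A at 1.16 (0.63 to 1.69).

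Neither COX5A nor COX5B held the 7 bases in an annotated 3′UTR. Each of their canonical transcripts held them once elsewhere, in the coding sequence of COX5A, starting at base 270 from the start codon, and in the 5′UTR of COX5B, and both windows are shown here with the 7 bases in capitals.
COX5A (chr15:75219158-75219187, minus strand): aaaatcattgaTGCTGCTttgcgggcatgc
COX5B (chr2:98262525-98262548, plus strand): agtttTGCTGCTagtcgcggacgc
These matches were looked for after the values of both genes had been seen. A match in the coding sequence was found in 9 of 87 members (10.3%) and in 6423 of 18397 symbols (34.9%). Of the 8 tested members with one, 5 were called higher in Ago2-IP with miR-195 (median 0.77), beside 32 of the 70 without (median 0.52). The 5 include COX5A, whose value prompted the search. Over all genes, 22.2% were called higher with a coding match (median 0.07) and 16.3% without (median -0.02). In Ago2-IP with miR-497, whose seed is identical, 0 of the 8 members with a coding match were called higher and 7 of the 70 without. Over all genes, these shares with miR-497 were 4.47% and 5.36%. Matches in the 5′UTR were not counted over all genes.

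**Figure D4:**
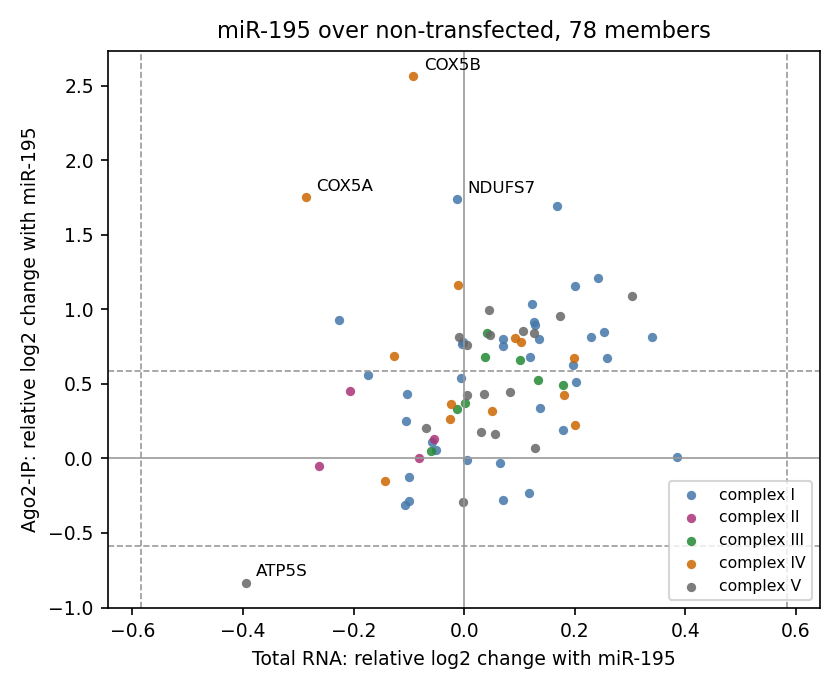
Relative log2 change with miR-195 over non-transfected cells in total RNA (x axis) and in Ago2-IP (y axis) for 78 members, coloured by complex; dashed lines mark 1.5-fold. No member passes 1.5-fold in total RNA, while COX5B at 2.57 lies at the top of the Ago2-IP axis, followed by COX5A at 1.75 close to NDUFS7 at 1.74.

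The members next in order had few reads. NDUFS7, a core iron-sulfur subunit of complex I, was listed at 0.45, 2.15 and 0.84 RPKM in the 3 Ago2-IP libraries, from 6, 23 and 7 reads. Its relative log2 change with miR-195 was 1.74, with a wide interval of 0.44 to 3.04. NDUFA3, an accessory subunit, was 4.59-fold higher than in non-transfected cells (1.99 to 10.6), from 7 and 26 reads, and NDUFS8 had a relative log2 change of 1.21 (0.60 to 1.83). In complex V, ATP5B was listed at 39.2, 101 and 31.8 RPKM in Ago2-IP, with a relative log2 change of 0.85 (0.76 to 0.95) with miR-195. ATP5A1 was at 32.1, 77.1 and 25.8 RPKM, with a change of 0.76 (0.65 to 0.87). The gamma subunit gene ATP5C1 and the epsilon subunit gene ATP5E were not called, at 0.18 (0.00 to 0.36) and 0.16 (-0.04 to 0.37), while ATP5D was at 1.09 (0.53 to 1.65). In complex III the changes ran from 0.05 for UQCRC2 to 0.84 for UQCRH, the hinge subunit. In complex II they were -0.05 for SDHB, 0.00 for SDHC, 0.13 for SDHA and 0.45 (0.05 to 0.85) for SDHD. ATP5S was the member called lower, at -0.83 (-1.42 to -0.24), followed without a call by NDUFA12 at -0.31 and ATP5J at -0.29.

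Several properties of the genes and libraries moved with the miR-195 count. The median of all genes tested was itself higher by 0.50 on the log2 scale in Ago2-IP with miR-195, and without centring 62 members were called higher beside 44.8% of all genes. Centred within bins of transcript length, 16 members were called higher and 4 lower, beside 16.4% higher and 14.6% lower of all genes, and COX5B and COX5A stood at 2.13 and 1.48. The Spearman correlation of the change with GC content was 0.32 across members and 0.56 across all genes, and that with length was -0.28 and -0.29. Outside the respiratory chain, 26 of 86 cytosolic ribosomal protein genes, 20 of 77 mitochondrial ones and 6 of 15 hepatocyte markers were called higher as well. Their part in the members' count was not tested beyond these settings.

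**Figure D5:**
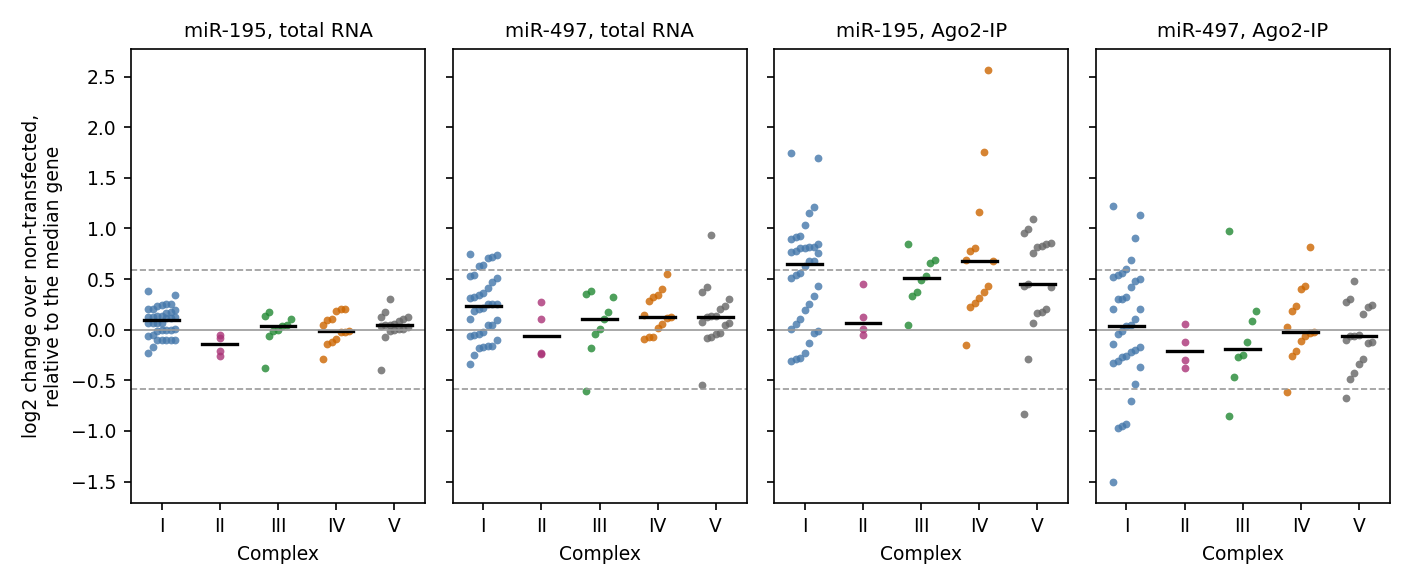
Relative log2 change over non-transfected cells of each member in the 4 comparisons, by complex; each point is 1 gene, the bar is the median of the complex, the solid line is the median of all genes tested and the dashed lines mark 1.5-fold. The members spread least in total RNA with miR-195 and lie mostly above the median gene in Ago2-IP with miR-195.

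In Ago2-IP with miR-497, the members lay around the median gene. Of 78 members, 7 were called higher and 8 lower, against 6.5% and 7.67% of the 10850 genes tested, with a median of -0.05. Complex II had no call, and complex I had 5 in each direction. Without centring, 4 were called higher and 15 lower, near the 2.995% and 18.2% of all genes. NDUFA2, an accessory subunit, was listed at 2.03, 5.02 and 3.98 RPKM in Ago2-IP of non-transfected, miR-195 and miR-497 cells, and its relative log2 change with miR-497 was 1.22 (0.46 to 1.98). NDUFS7 followed at 1.13 (-0.44 to 2.70), from 6 and 7 reads, and UQCRH at 0.97. NDUFB7 had the lowest value at -1.51 (-3.29 to 0.27), which rested on 16 reads without and 3 reads with miR-497. NDUFV2, a core iron-sulfur subunit of complex I with more reads (183, 208 and 51), was listed at 11.7, 16.4 and 5.15 RPKM. Its relative log2 change was -0.93 (-1.38 to -0.49), so the miR-497 library was the lowest of the 3. NDUFB2 and NDUFB4, accessory subunits, were at -0.97 and -0.95. Of the 15 calls, 12 had an interval, and that of 4 higher and 3 lower members excluded the median gene.

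The fold enrichment score divides the Ago2-IP to total RNA ratio with a mimic by that of non-transfected cells. For miR-195, 33 of 78 members were called higher and none lower, against 16.1% and 12.2% of the 10811 genes tested, with a median relative log2 score of 0.47. COX5B scored 2.67 (2.38 to 2.96), COX5A 2.05 (1.77 to 2.34) and NDUFS7 1.77 (0.44 to 3.09). Centred within bins of transcript length, 14 of 78 members were called higher and 4 lower, against 13.996% and 11.3% of all genes, so the count was then near that of all genes. For miR-497, 8 members were called higher and 15 lower, against 8.81% and 18.3% of the 10786 genes tested, with a median of -0.22. Without centring these were 1 higher and 33 lower, against 3.24% and 30.7% of all genes. NDUFS4, an accessory subunit of complex I, had the highest score for miR-497 at 1.22 (0.59 to 1.85). NDUFB7 at -2.27, ATP5D at -1.64 and NDUFA11 at -1.44 had the lowest scores.

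The members with the site in a 3′UTR showed no common direction. With miR-195, none of the 9 was called in total RNA, and in Ago2-IP 3 were called higher and 1 lower, beside 16.7% higher and 11.9% lower of all genes with the site. Those called higher were ATP5A1, NDUFA11 and NDUFS7, and the one called lower was ATP5S. With miR-497, NDUFA11 and NDUFS7 were called higher in total RNA, as were 6.69% of all genes with the site. In Ago2-IP with miR-497, NDUFS7 was called higher and NDUFA11 lower, beside 4.34% and 5.45% of those genes. ATP5S was at 6.73, 5.09 and 4.76 RPKM in total RNA and had the lowest or next lowest value of the members with both mimics there. For all genes, the median relative log2 change in total RNA was -0.08 with and 0.03 without the site for miR-195, and -0.07 and 0.02 for miR-497. For the 9 members these medians were 0.01 and 0.08.

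Genes that build or feed the respiratory chain were followed by lists. Of 34 assembly factors listed, 30 were found and tested in total RNA, and none was called with either mimic. Among 15 regulators of mitochondrial biogenesis, 1 was called lower with each mimic (6.67%), against 6.31% of all genes with miR-195 and 3.99% with miR-497. PPRC1, a coactivator of nuclear respiratory genes, was the call with miR-195 (-0.62). GABPA, a subunit of nuclear respiratory factor 2, was the call with miR-497 (-0.63). No gene of the 14 in the citric acid cycle was called in total RNA. A list of 7 further genes of the chain held cytochrome c (CYCS), the flavoproteins ETFA, ETFB and ETFDH, the subunits CYC1 and NDUFAB1, whose symbols the rule did not take, and the ATPase inhibitor ATPIF1. In total RNA, ETFB, which carries electrons from fatty acid oxidation, was its 1 call, higher with miR-497 (0.67). In Ago2-IP with miR-195, 6 of 29 assembly factors were called higher, with SDHAF1, an assembly factor of complex II, at 1.58, and so were 3 of 14 citric acid cycle genes (IDH2, MDH2 and OGDH). These shares of 20.7% and 21.4% lie near the 18.6% of all genes. Also higher were 2 of the 7 further genes (ETFB and ATPIF1) and 1 of 15 regulators (POLRMT), while 2 regulators (GABPB1 and POLG2) were called lower. With miR-497 in Ago2-IP, 3 of 29 assembly factors (10.3%) and 2 of 15 regulators (13.3%) were called lower, against 7.67% of all genes, and none of these 4 lists had a gene called higher.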

How the data were processed

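Per the labels and the study's methods, the authors mapped 36-base single reads (Genome Analyzer IIx) to hg19 with ELANDv2 and converted them to RPKM with CASAVA 1.7, and the deposited RPKM of 21891 lines in 6 libraries were used here. How reads with several matches were counted is not given in the sources used here. The 28 symbols on more than 1 line were averaged. The log2 ratios were computed from the RPKM without a pseudocount, for genes with a mean of at least 1 RPKM and above 0 in the libraries compared, centred on the median of all genes tested, and called from 1.5-fold. With 1 library a group no model was fitted, except limma on the 3 ratios of Ago2-IP to total RNA.

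Whole reads were inferred as the smallest whole numbers that gave the ratios of RPKM between libraries, within 0.01 to 0.06 of a read, for 12840 of 15487 genes (82.9%) and 74 members, and solutions implying over 3 times the annotated length were dropped. Since a common factor of all reads cannot be seen, intervals can be too wide. The procedure was tested on simulated data. RPKM of a gene depend on the authors' gene models, and sites, length and GC content came from GENCODE 44 canonical transcripts, by symbol (68 members) or a RefSeq synonym (20). Matches of the 7-base site that overlap were counted once. Protein sequences were not used here. One sequence window is not reported here.

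The members and lists were chosen with earlier results of these data known. Genes named are the highest and lowest of each complex, the 3 furthest members in each direction of each comparison, isoform families, members with a site, complex II, members listed at 0 and 6 central subunits (NDUFV1, NDUFS1, UQCRC1, UQCRFS1, ATP5A1, ATP5B), with further members named after their values were seen. Alternatives were no centring, a pseudocount of 1 RPKM, no minimum level and subunits only, and, chosen after seeing the data, centring within 20 bins of GC content, of transcript length or of mean RPKM, and the limma fit (trend in the prior variance, Benjamini-Hochberg adjustment). Python 3.11.15, pandas 2.3.3 and numpy 2.4.6, R 4.3.3 and limma 3.58.1 were used.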

Additional observations from a re-analysis of the deposited data

Results flagged for a closer look

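With miR-497, 3 members were called in opposite directions in both fractions relative to non-transfected cells, in 1 library each, and the difference between the fractions was not tested. ATP5D, the delta subunit of ATP synthase, had a relative log2 change of 0.94 in total RNA and of -0.68 in Ago2-IP. NDUFA11, an accessory subunit of complex I, had 0.72 in total RNA and -0.70 in Ago2-IP. NDUFB7, another accessory subunit, had 0.74 in total RNA and -1.51 in Ago2-IP. The transcripts of all 3 have at least 60% GC, and the Ago2-IP values of ATP5D and NDUFB7 with miR-497 rest on 12 and 3 reads. The counting intervals of these Ago2-IP values, -1.62 to 0.27 for ATP5D and -3.29 to 0.27 for NDUFB7, include the median gene, and NDUFA11 has no interval. Centred within bins of GC content, none of the 3 was called higher in total RNA (ATP5D at 0.29 and NDUFB7 at 0.09). Of all genes, 2.78% were called higher there, so the opposite calls depend on that setting.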

How the results depend on the processing

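None of the named members past 1.5-fold changed its sign under these alternatives. Without centring, the members called higher and lower were 62 and 0 for miR-195 in Ago2-IP, 4 and 15 for miR-497 in Ago2-IP, 64 and 0 for the miR-195 score, and 1 and 33 for the miR-497 score, while for miR-497 in total RNA 0 were lower. With a pseudocount of 1 RPKM, 4 were higher for miR-497 in Ago2-IP (2.23%) and 3 for its score (4.73%). With that pseudocount 0 were lower for miR-497 in total RNA (2.61%) and for miR-195 in Ago2-IP (8.48%). With no minimum level, 2 were higher (12.9%) and 1 lower (8.93%) for miR-195 in total RNA, and 2 lower (7.36%) for miR-497 in total RNA. That setting also gave 2 lower (17.4%) for miR-195 in Ago2-IP and 2 higher (32.3%) for Ago2-IP over total RNA. For the miR-195 score it gave 1 lower (16.9%). With subunits only, 0 were lower for miR-497 in total RNA (3.99%) and for miR-195 in Ago2-IP (15.2%), since UQCRHL and ATP5S are then left out. Within bins of GC content, 0 were higher for miR-497 in total RNA (2.78%), 0 lower for miR-195 in Ago2-IP (10.3%) and 4 higher for the miR-497 score (5.67%). Within bins of transcript length, 2 were higher (9.07%) for miR-497 in total RNA, and 16 higher (16.4%) and 4 lower (14.6%) for miR-195 in Ago2-IP. The same bins gave 1 higher (25.7%) for Ago2-IP over total RNA. For the miR-195 score they gave 14 higher (13.996%) and 4 lower (11.3%). Within bins of mean RPKM, 2 were lower for miR-497 in total RNA (4.57%) and 1 higher for Ago2-IP over total RNA (26.3%). Apart from the subunits left out, the cause of these shifts was not tested. All other counts stayed within 1.5 times the reported count. The comparisons of the mimics have 1 library a group, so no replicate could be blocked or left out there. For Ago2-IP over total RNA, limma on the 3 pairs of fractions, chosen after seeing the data, gave 69 members lower (27.9%) and 0 higher (25.8%). Leaving out 1 pair at a time gave between 58 (13.2%) and 72 (31.5%) lower and 0 higher (10.2% to 31.0%). Members with few reads in an Ago2-IP library, such as NDUFS7 and NDUFA3, have intervals spanning several-fold.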
